A study of Mus musculus with 92 samples.

Results

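A set of 10 genes of protein folding in the endoplasmic reticulum (ER) was followed in livers of female HET3 mice, namely Hspa5, Hsp90b1, Hyou1, Dnajb9, Sdf2l1, Pdia4, Creld2, Calr, Manf and Xbp1. The set was taken as a named list of 10 genes out of the 17275 on completely filled lines of the gene count table, matched by symbol to the gene identifiers of the deposited comparison tables. All 10 passed the filter on low counts, which kept 12617 genes for testing. HET3 mice are a genetically heterogeneous stock bred from several inbred strains, so animals of a group differ in genotype. No transgene, deletion or drug was named in the labels. The 6 groups were females killed at 6 months on Control (n = 8), Low Amino Acid (n = 8) or Low Isoleucine diet (n = 7), and females killed at 24 months on Control (n = 8), Low Amino Acid (n = 7) or Low Isoleucine diet (n = 8). All mice were fasted for 16 hours before the liver was taken. Per the labels, feeding began at 9 weeks of age in the younger set and at 6 months in the older one, whereas the series' design text gives 13 weeks on the diets, so the time on diet at 24 months is uncertain. Age differed together with the age at which feeding began and, per the labels, with time on diet. This holds for every diet, Control included, and these cannot be told apart.

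The ER is where secreted and membrane proteins fold, and the hepatocyte, which secretes most plasma proteins, carries a large load of them. When unfolded proteins build up, the sensors IRE1, PERK and ATF6 start the unfolded protein response: IRE1 splices the Xbp1 transcript so that it encodes an active transcription factor, ATF6 is cut to release another, and PERK slows translation and raises ATF4. XBP1 and cleaved ATF6 then raise the transcription of chaperones, folding enzymes and degradation factors. Gene counts such as these do not separate spliced from unspliced Xbp1, and they report RNA, not protein.

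Total estimated counts per library ran from 7.82 M to 27.56 M, with a median of 22.58 M. The lowest was Low Isoleucine replicate 5 at 24 months, and the next was at 14.29 M. Hepatocyte marker transcripts were high throughout: the 8 markers summed to at least 69819 CPM (counts-per-million, on TMM-scaled library sizes) in each library. A further library labelled as a 6-month female on Low Isoleucine held 50.8 CPM of the Y-linked gene Kdm5d, against at most 0.639 CPM in the other female libraries, and was left out. The labels name no batch, and no 2 libraries held identical values. In whole-liver RNA, fewer cells of a type and less RNA per cell cannot be told apart.

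An element through which ATF6 and XBP1 are known to act on ER chaperone genes is the ER stress response element (ERSE), spelled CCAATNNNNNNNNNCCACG. It was searched for, on both strands, in RefSeq promoter windows (GRCm38.p6) that reach from 250 bases before to 50 bases after each start, and 8 of the 10 genes had such a window. Hspa5, Hsp90b1, Creld2 and Calr held an exact ERSE, which was present in 0.119% of 32851 promoter windows. Allowing 1 mismatch added Pdia4 (5 of 8 genes, against 1.5% of windows), and allowing 2 added Dnajb9 and Sdf2l1 (7 of 8, against 17.9%). The best match in Xbp1 had 3 mismatches. The best matches are shown because they set apart genes with the exact element from genes with a partial one, each read 5′ to 3′ on the strand of the element, with the letters that match the fixed ends of the ERSE in capitals:
Hspa5, chr2:34772025-34772043: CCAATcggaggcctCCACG
Hsp90b1 far site, chr10:86705638-86705656: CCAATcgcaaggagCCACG
Hsp90b1 near site, chr10:86705533-86705551: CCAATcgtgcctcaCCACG
Creld2, chr15:88819520-88819538: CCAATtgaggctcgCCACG
Calr, chr8:84847075-84847093: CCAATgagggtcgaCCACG
Pdia4, chr6:47813602-47813620: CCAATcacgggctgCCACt
Dnajb9, chr12:44210172-44210190: gCAAcaacagttttCCACG
Sdf2l1, chr16:17132405-17132423: CCAATcgtctgcgcgCgCG
Xbp1, chr11:5520536-5520554: CtAAgccggatatgCCACc

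The Hspa5 element lay 65 to 47 bases before the RefSeq start. Starts here are RefSeq's and differ from the ends of the gene spans printed below, which are GENCODE's, so that the matches in Hspa5 and Dnajb9 lie inside those spans. Hsp90b1 was the only 1 of the 8 windows with 2 exact elements, at 212 to 194 and 107 to 89 bases before its start and on opposite strands. Their arrangement is shown on the gene's own strand (minus strand of chromosome 10, chr10:86705510-86705694, GRCm38.p6), with the fixed ends of both elements in capitals:
Hsp90b1 upstream stretch: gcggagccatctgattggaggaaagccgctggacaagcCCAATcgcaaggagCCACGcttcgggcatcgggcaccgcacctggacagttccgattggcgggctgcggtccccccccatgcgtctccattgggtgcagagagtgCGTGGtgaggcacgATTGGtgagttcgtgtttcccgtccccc

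Related elements were not found in these windows as exact letters. ERSE-II (ATTGGNCCACG) was in 0 of the 8 and in 0.0365% of all windows, and the UPR element TGACGTGG was in 0 of the 8 and in 0.676% of all windows. These are matches of letters and say nothing of binding. In the 4 genes with an exact match, the log2 fold changes with age on Control were 1.42 (Creld2), 0.85 (Hspa5), 0.72 (Calr) and 0.31 (Hsp90b1). In the genes with a partial match they were 2.17 (Sdf2l1), 0.58 (Pdia4), 0.53 (Xbp1) and 0.35 (Dnajb9). Whether these values go with the element was not tested.

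Per kilobase of exon, the 6-month controls had most RNA of the abundant lumenal chaperones. Hsp90b1 (GRP94) stood at 240 ± 68.8 CPM per kb (SD, n = 8), Calr at 162 ± 31.1, Hspa5 (BiP) at 130 ± 40.2 and Pdia4 at 104 ± 16.3. Xbp1 followed at 51.8 ± 8.36, Dnajb9 at 23.0 ± 7.97 and Hyou1 at 21.1 ± 4.10. Creld2 (14.5 ± 4.39), Manf (8.50 ± 2.77) and Sdf2l1 (4.97 ± 1.76) had least. Lengths were the union of all annotated exons, 3.524 kb for Manf, which lowers the level of a gene whose main transcript is shorter. The order is uncertain to that extent. Neighbours in this order overlapped in range, except that all Pdia4 values lay above all Xbp1 values. The Hsp90b1 level is uncertain, since its estimated counts were over 0.001 from a whole number in 100% of the 46 libraries, which happens where reads are split with other loci. The same held for Dnajb9 in 54.35% of libraries and for Hyou1 in 39.1%.

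The first comparison was of age on the Control diet. Most of the 10 genes were higher at 24 than at 6 months: 8 rose and 0 fell at an adjusted p under 0.05 (edgeR quasi-likelihood test, Benjamini-Hochberg over 12617 genes), where 16.7% of all tested genes rose and 11.4% fell. Sdf2l1, Manf and Creld2 had the largest differences, between 2.68-fold and 4.49-fold, and Hsp90b1 and Dnajb9 did not pass. As many passed with DESeq2, but fewer with voom and quality weights or in a fit of these 2 groups alone. Those counts are given in the last section. The median log2 fold change of the 10 genes was 0.78, against 0.03 over all genes. In no gene were the 2 age groups separate, because some 24-month controls stayed at the level of the younger ones.

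**Figure D1:**
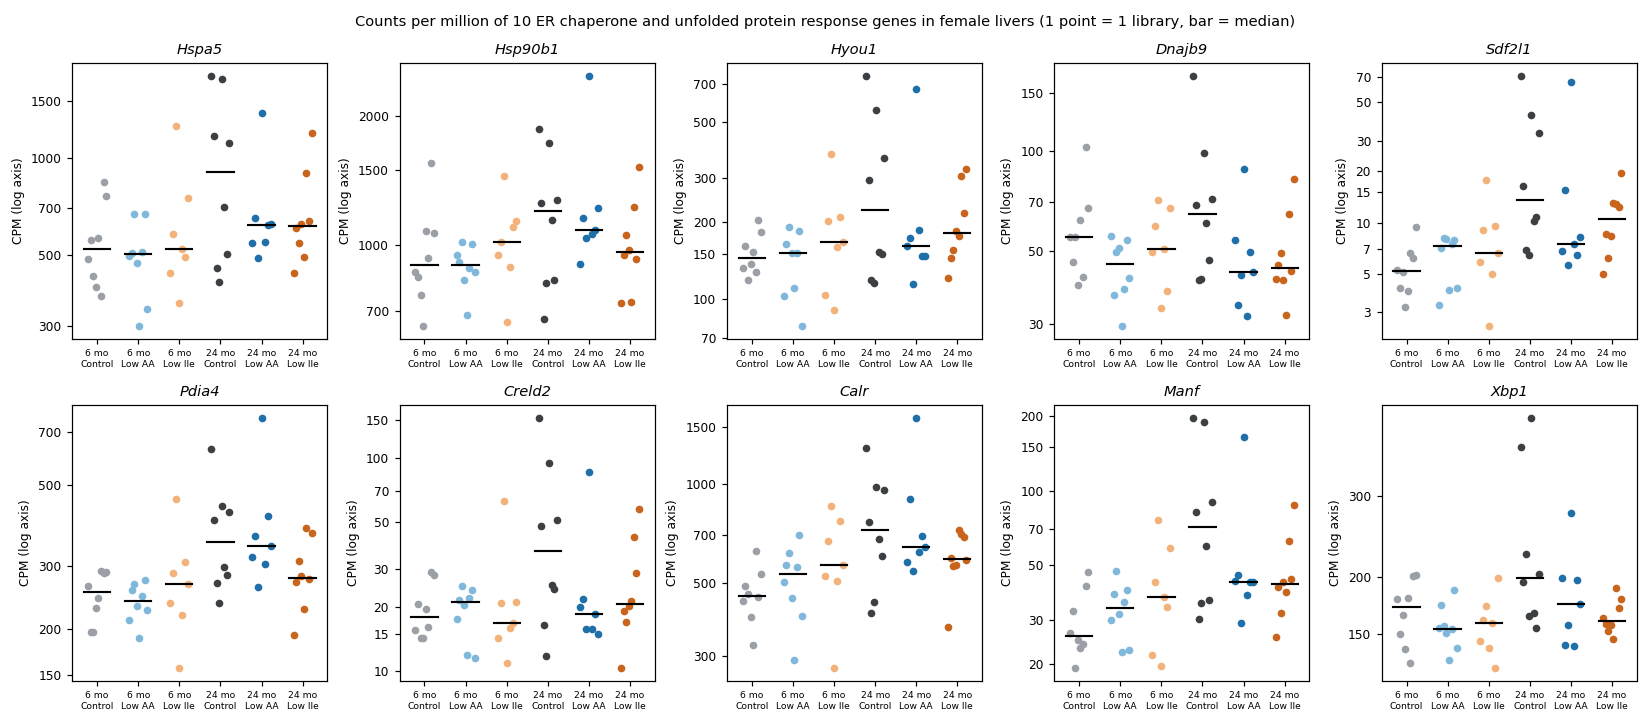
Each panel shows 1 gene, with the CPM of each female library on a log axis, grouped by age and diet (Low AA, Low Amino Acid; Low Ile, Low Isoleucine), and a bar at the group's median. Hspa5 spread from 412 to 1804 CPM in the 24-month controls, and a single 24-month Low Amino Acid library lies above the rest of its group in every panel.

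Among the chaperones of the HSP70 system, Hspa5 (ENSMUSG00000026864, chr2:34771970-34777547) encodes BiP, the ER HSP70 that binds unfolded chains and holds the sensors inactive. Its level in the 6-month controls had a minimum of 373, a median of 520.0 and a maximum of 840 CPM. In the 24-month controls the minimum was 412, the median 906 and the maximum 1804 CPM. Replicates 1, 5, 2 and 8 (1804, 1758, 1168 and 1112 CPM) were above every younger control, and the other 4 lay within the younger range. The log2 fold change was 0.85 ± 0.28 (SE), with an adjusted p of 0.021. Hyou1 (ENSMUSG00000032115, chr9:44379490-44392369), the large HSP70-like exchange factor of BiP, ran from 119 to 205 CPM (median 145) in the younger controls and from 116 to 758 CPM (median 224) in the older ones. The same 4 replicates were above all younger controls, and the log2 fold change was 1.04 ± 0.34 (adjusted p = 0.020).

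Dnajb9 (ENSMUSG00000014905, chr12:44205559-44210326), the J-domain cofactor ERdj4 that brings BiP to IRE1, ran from 39.4 to 103 CPM (median 54.9) at 6 months and from 40.7 to 170 CPM (median 64.7) at 24 months. Only replicate 1 was above every younger control, and the log2 fold change of 0.35 ± 0.24 did not pass (adjusted p = 0.28). Sdf2l1 (ENSMUSG00000022769, chr16:17130138-17132383), which forms a complex with the J-domain proteins of the ER, ran from 3.23 to 9.43 CPM (median 5.21) at 6 months. At 24 months it ran from 6.48 to 71.7 CPM (median 13.6), and 6 of 8 libraries were above the highest younger control. Its log2 fold change, 2.17 ± 0.47 (adjusted p = 0.0010), was the largest of the 10.

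Hsp90b1 (ENSMUSG00000020048, chr10:86690209-86705509), the ER HSP90, ran from 645 to 1553 CPM (median 899) at 6 months and from 670 to 1870 CPM (median 1199) at 24 months. Only replicates 1 and 5 passed the highest younger library, and the log2 fold change of 0.31 ± 0.20 did not pass (adjusted p = 0.25). Calr (ENSMUSG00000003814, chr8:84841850-84846934), the calcium-binding lectin chaperone calreticulin, ran from 325 to 624.8 CPM (median 458) at 6 months and from 405 to 1287 CPM (median 724) at 24 months. The 5 aged libraries of replicates 1, 2, 5, 6 and 8, were above the younger range, and the log2 fold change was 0.72 ± 0.22 (adjusted p = 0.013).

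For Pdia4 (ENSMUSG00000025823, chr6:47796141-47813430), a disulfide isomerase, the values were 197 to 289 CPM (median 254) at 6 months and 237 to 628 CPM (median 349) at 24 months. Of the 8 aged libraries 5 were above the younger range, with a log2 fold change of 0.58 ± 0.19 (adjusted p = 0.021). Creld2 (ENSMUSG00000023272, chr15:88819646-88826683), a secreted ER stress-inducible protein with disulfide isomerase-like motifs, ran from 14.4 to 29.2 CPM (median 17.9) at 6 months and from 11.8 to 154 CPM (median 36.7) at 24 months. The lowest Creld2 value of the 2 groups was thus in an aged control, replicate 4, and the log2 fold change was 1.42 ± 0.42 (adjusted p = 0.0096).

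Manf (ENSMUSG00000032575, chr9:106838312-106891979) encodes a small ER protein that is also secreted as a trophic factor. It ran from 19.2 to 47.2 CPM (median 25.8) at 6 months and from 30.3 to 197 CPM (median 71.2) at 24 months, with a log2 fold change of 1.59 ± 0.35 (adjusted p = 0.0011). Of the 8 aged libraries 5 were above the younger range. The Manf annotation overlaps Rbm15b on the same strand, and its counts were not whole, by the same tolerance, in 28.3% of libraries, so some of its reads may be shared. Xbp1 (ENSMUSG00000020484, chr11:5520659-5525893) is the only transcription factor of the 10. It ran from 130 to 202 CPM (median 172) at 6 months and from 155 to 445 CPM (median 199) at 24 months, with a log2 fold change of 0.53 ± 0.16 (adjusted p = 0.012). Xbp1 was highest in replicate 5 (445 CPM), whereas the other 9 genes were highest in replicate 1.

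**Figure D2:**
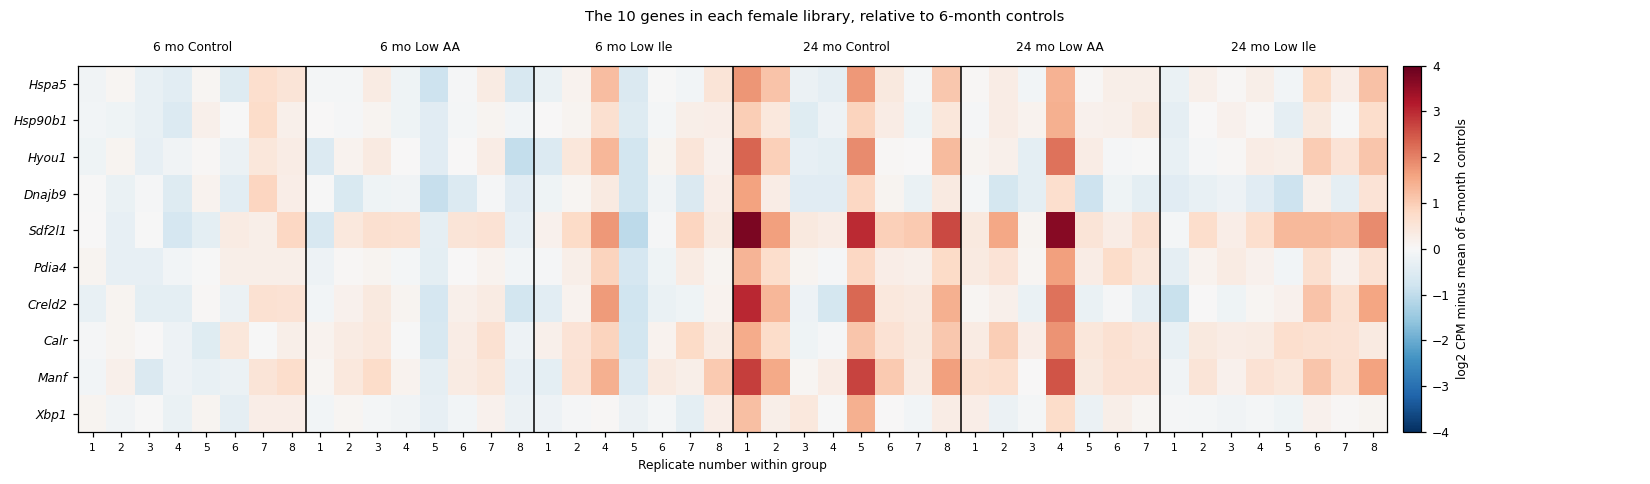
Rows are the 10 genes and columns the 46 female libraries, ordered by group and replicate number; color is the log2 CPM of a library minus the mean of the 6-month controls. The strongest red columns are 24-month Control replicates 1 and 5 and 24-month Low Amino Acid replicate 4, whose averages over the 10 genes are 2.03, 1.67 and 1.81.

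The 10 genes tended to be high in the same libraries. Averaged over the 10 genes, log2 CPM stood 2.03 above the younger controls in 24-month Control replicate 1 and 1.67 above in replicate 5. Replicates 8 and 2 followed at 1.10 and 0.90, and the other 4 lay between -0.16 and 0.41. The younger controls themselves ran from -0.35 to 0.46. Replicates 1 and 5 had the highest averages of the aged controls, so leaving them out lowers the fold changes by construction. Leaving out both was chosen after seeing the data, and these fits only describe how far the age difference rested on them. Without replicate 1, where 13.2% of all genes rose, 2 of the 10 genes passed, Sdf2l1 (log2 fold change 1.71 ± 0.45, adjusted p = 0.0065) and Manf (1.32 ± 0.34, adjusted p = 0.0062). Without replicate 5, where 15.1% of all genes rose, 5 passed, and Hspa5, Hyou1 and Xbp1 did not. Without both, where 11.6% of all genes rose, Sdf2l1 (1.35 ± 0.44, adjusted p = 0.030) and Manf (0.89 ± 0.32, adjusted p = 0.046) still passed, Hspa5 fell to 0.40 ± 0.27 (adjusted p = 0.31), and Dnajb9 changed sign to -0.09 ± 0.22.

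**Figure D3:**
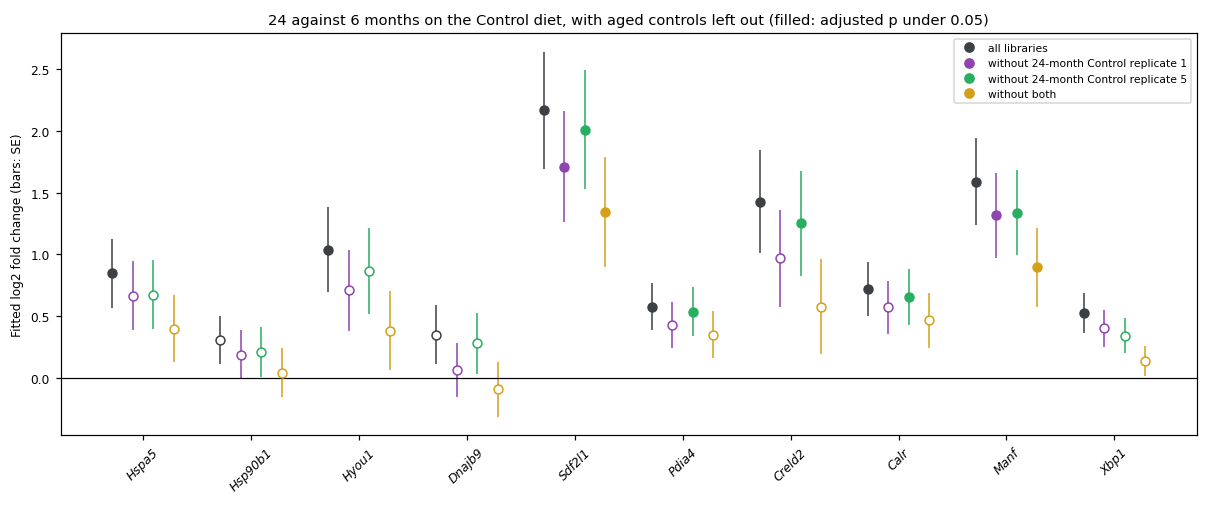
Fitted log2 fold changes (24 against 6 months on Control, bars are standard errors) of the 10 genes with all libraries and with 24-month Control replicate 1, replicate 5 or both left out; filled points passed an adjusted p of 0.05. Sdf2l1 and Manf stay filled in all 4 fits, and no other gene is filled when replicate 1 or both are left out.

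Acute phase genes, which hepatocytes raise in systemic inflammation, moved with these libraries. Of 16 tested, 15 rose with age on Control and 0 fell, where 16.7% of all genes rose and 11.4% fell. Saa2 rose by 7.59 ± 1.46, Lcn2 by 6.29 ± 1.17 and Saa3 by 4.33 ± 0.88 on the log2 scale. The mean log2 CPM of the 16 genes was 11.99 in 24-month Control replicate 1 and 12.20 in replicate 5, against 8.46 to 10.77 in the other 6 aged controls and 8.23 to 8.96 in the younger ones. The order was not the same for both lists, since replicate 2, with Hspa5 at 1168 CPM, had an acute phase mean of 8.89. Without replicates 1 and 5, 12 of the 16 acute phase genes still rose, a larger share than that of all genes in the same fit, given above.

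Markers of immune cells also rose with age on Control: 10 of 10 neutrophil, 7 of 7 B and plasma cell, 8 of 10 Kupffer cell and macrophage, and 4 of 8 T and NK cell markers. Over all genes 16.7% rose and 11.4% fell in this comparison. Endothelial (0 of 8), stellate (2 higher, 1 lower of 10), bile duct (2 of 7) and hepatocyte markers (0 higher, 1 lower of 8) had fewer calls. The stellate and bile duct counts were near those shares. Acinar pancreas markers had only 1 gene above the filter, which fell. Plasma cells are rich in ER chaperones, and the summed B and plasma cell markers ran from 2.64 to 10.7 CPM in the younger controls and from 6.51 to 207 CPM in the older ones. They stood at 16.5 CPM in both replicate 1 and replicate 5 and were highest, at 207 CPM, in replicate 7, whose average over the 10 genes was 0.17. Summed neutrophil markers ran from 3.60 to 9.24 CPM in the younger controls and from 9.30 to 588 CPM in the older ones, with 498 CPM in replicate 1, 30.9 CPM in replicate 5 and 588 CPM in replicate 4, where the 10 genes averaged -0.16. The part of these cells and of the acute phase response in the age difference was not tested.

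Age was compared within the restricted diets as well. On Low Amino Acid, 1 of the 10 genes rose and 0 fell, where 1.13% of all genes rose and 0.483% fell. It was Pdia4, which ran from 189 to 273 CPM (median 240) at 6 months and from 262 to 768 CPM (median 340) at 24 months, with 6 of 7 aged libraries above the younger range. Its log2 fold change was 0.73 ± 0.20 (adjusted p = 0.042). This call was lost in 10 of the 46 fits that each left out 1 library, and without the high replicate 4 the value was 0.48. Sdf2l1 (1.396 ± 0.47, adjusted p = 0.14), Manf (0.79 ± 0.36, adjusted p = 0.30), Hyou1 (0.69 ± 0.35, adjusted p = 0.38) and Calr (0.64 ± 0.23, adjusted p = 0.15) had positive values that did not pass. Hsp90b1 differed by 0.52 ± 0.20 (adjusted p = 0.22), and the remaining 4 genes by 0.14 to 0.51. Without replicate 4 Sdf2l1 was at 0.41, Manf at 0.26, Hyou1 at 0.13, Calr at 0.38, Hsp90b1 at 0.27, Hspa5 at 0.23 and Xbp1 at 0.11, while Creld2 (-0.11) and Dnajb9 (-0.07) changed sign. Replicate 4 was the highest of its group in all 10 genes, so leaving it out lowers these values by construction.

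On Low Isoleucine, 0 of the 10 genes passed in either direction, where 4.9% of all genes rose and 2.44% fell with age. None had an unadjusted p under 0.05, against 25.2% of all genes, and DESeq2 and voom also called 0. The log2 fold changes lay between -0.08 (Dnajb9) and 0.42 ± 0.48 (Sdf2l1), with a median of 0.09. Hspa5 ran from 352 to 1257 CPM (median 520.1) at 6 months and from 438 to 1192 CPM (median 613) at 24 months. At both ages 1 library was far above most of its group, replicate 4 at 6 months (1257 CPM) and replicate 8 at 24 months (1192 CPM).

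At 24 months the restricted diets were compared with Control. On Low Isoleucine all 10 genes had negative log2 fold changes, with a median of -0.57 against -0.02 over all genes, and 1 of the 10 passed, Xbp1. Over all genes 3.79% fell and 2.69% rose. Xbp1 ran from 147 to 189 CPM (median 161) on Low Isoleucine and from 155 to 445 CPM (median 199) on Control, so that the groups overlapped and the spread was narrower on the diet (coefficient of variation 8.62% against 45.4%). Its log2 fold change was -0.56 ± 0.16 (adjusted p = 0.026). The call was lost without Control replicate 1 (-0.43 ± 0.15, adjusted p = 0.099) or replicate 5 (-0.38 ± 0.14, adjusted p = 0.085), and in the fit of those 2 groups alone (adjusted p = 0.20).

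This comparison and that of age on Control share the 24-month Control libraries. Sdf2l1 ran from 4.99 to 19.5 CPM (median 10.5) on the diet against 6.48 to 71.7 CPM on Control, a log2 fold change of -1.21 ± 0.46 (adjusted p = 0.099). Manf ran from 25.8 to 87.5 CPM (median 42.0), with a log2 fold change of -0.94 ± 0.35 (adjusted p = 0.091), and Creld2 from 10.4 to 57.4 CPM (median 20.8), with -0.97 ± 0.41 (adjusted p = 0.15). None of these 3 passed. Dnajb9 (-0.58 ± 0.24, adjusted p = 0.13), Hyou1 (-0.62 ± 0.34, adjusted p = 0.28) and Hspa5 (-0.54 ± 0.28, adjusted p = 0.24) did not pass either, nor did Pdia4 (-0.37 ± 0.19, adjusted p = 0.25), Calr (-0.35 ± 0.22, adjusted p = 0.35) or Hsp90b1 (-0.24 ± 0.20, adjusted p = 0.50). Without Control replicate 1 the values moved to -0.75 in Sdf2l1, -0.67 in Manf, -0.51 in Creld2, -0.30 in Dnajb9, -0.29 in Hyou1, -0.36 in Hspa5, -0.22 in Pdia4, -0.20 in Calr and -0.12 in Hsp90b1. Replicate 1 was the highest 24-month control in these 9 genes, so leaving it out shrinks these differences by construction. The acute phase genes were lower on this diet in 12 of 16 cases, and their mean log2 CPM ran from 8.75 to 9.94 across the 8 libraries. Their part in the values of the 10 genes was not tested.

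On Low Amino Acid at 24 months, 0 of the 10 genes passed against Control, where 0.452% of all genes rose and 0.293% fell. There were 3 with an unadjusted p under 0.05, Dnajb9 (-0.61 ± 0.25), Creld2 (-0.95 ± 0.43) and Xbp1 (-0.40 ± 0.16). Over all genes 16.9% had an unadjusted p under 0.05. DESeq2 and voom called 0 of the 10. Of the log2 fold changes 7 were negative, while Hsp90b1 (0.09 ± 0.20), Pdia4 (0.09 ± 0.20) and Calr (0.06 ± 0.23) were slightly positive. These values turned on replicate 4, the highest library of its group in all 10 genes: Hspa5 was at 1377 CPM there, Hyou1 at 673 CPM and Sdf2l1 at 65.9 CPM. The group's medians were 620.1, 162 and 7.45 CPM. Without that library, Sdf2l1 (-1.56 ± 0.42, adjusted p = 0.040) and Creld2 (-1.57 ± 0.42, adjusted p = 0.034) passed and the signs of Hsp90b1, Pdia4 and Calr turned negative. Leaving out a group's highest library lowers the group by construction, so these calls only describe how the values depend on it. The share of all genes called in that fit is not given here. Its acute phase mean was 12.12, against 8.73 to 10.36 in the other 6 libraries of the group.

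Low Isoleucine and Low Amino Acid were compared directly at 24 months as well. None of the 10 genes passed, where 0.269% of all genes rose and 0.983% fell, and DESeq2 and voom called 0. Of the 10, 1 had an unadjusted p under 0.05 (Pdia4, -0.45 ± 0.20), against 15.8% of all genes. Of the 10 log2 fold changes 9 were negative, with a median of -0.24. The direction rested on Low Amino Acid replicate 4: without it 6 of the 10 were positive, Creld2 at 0.60, Hyou1 at 0.40, Sdf2l1 at 0.36, Dnajb9 at 0.23, Hspa5 at 0.23 and Manf at 0.22, and 0 passed. That library was the highest of its group in all 10 genes, so leaving it out raises these values by construction. The interval of the Hspa5 difference reached from -0.59 to 0.54 on the log2 scale (95%, from the standard error), so differences within that interval were not resolved.

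**Figure D4:**
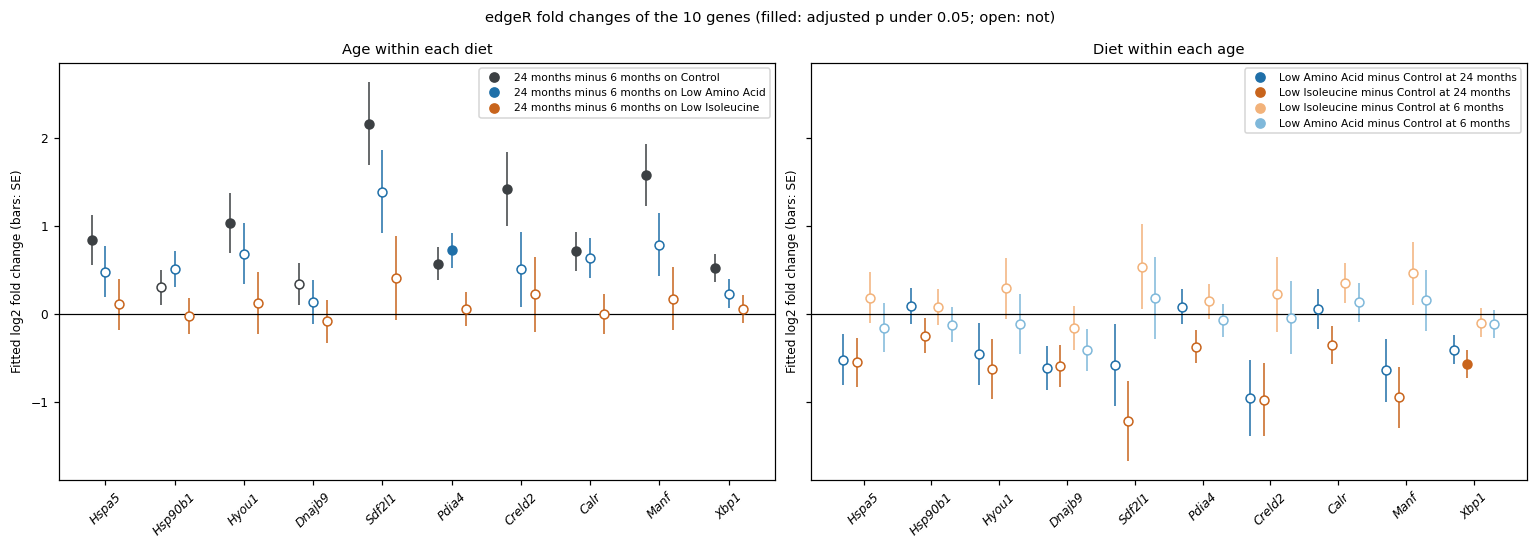
Fitted edgeR log2 fold changes of the 10 genes with standard errors; the left panel holds the difference between 24 and 6 months within each diet, and the right panel the difference of each diet from Control at each age. Filled points passed an adjusted p of 0.05: 8 for age on Control, 1 for age on Low Amino Acid (Pdia4) and 1 for Low Isoleucine at 24 months (Xbp1).

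At 6 months no difference between the diets was detected in these genes. Against Control, 0 of 10 passed on Low Amino Acid (0% of all genes rose and 0% fell) and 0 of 10 on Low Isoleucine (0.00793% rose and 0.0159% fell), and 0 of 10 passed between the 2 diets (0% rose and 0.0159% fell). In these 3 comparisons no gene of the 10 had an unadjusted p under 0.05, and DESeq2 and voom called 0. Over all genes 8.11%, 10.1% and 9.99% had such a p, in the order given. Log2 fold changes ran from -0.40 ± 0.24 (Dnajb9) to 0.19 ± 0.47 (Sdf2l1) on Low Amino Acid and from -0.15 ± 0.25 (Dnajb9) to 0.54 ± 0.48 (Sdf2l1) on Low Isoleucine. The positive values on Low Isoleucine rested in part on its replicate 4, whose average over the 10 genes was 1.03. Without it Hspa5 went from 0.19 to -0.08 and Creld2 from 0.23 to -0.25. That library was the highest of its group in 9 of the 10 genes, these 2 included, so leaving it out lowers them by construction.

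Whether a diet's difference from Control itself changed between the ages was tested as an interaction. No gene of the 10 passed for either diet (edgeR), and over all 12617 genes 0% were called higher and 0% lower. For Low Isoleucine all 10 interaction values were negative, and the smallest adjusted p was 0.37. An unadjusted p under 0.05 was found in 5, against 8.50% of all genes. They were Manf (-1.41 ± 0.50), Sdf2l1 (-1.75 ± 0.66), Calr (-0.71 ± 0.31), Xbp1 (-0.46 ± 0.23) and Creld2 (-1.20 ± 0.59). For Low Amino Acid 8 were negative and 0 had an unadjusted p under 0.05, against 10.3% of all genes. DESeq2 and voom called 0 of the 10 for both diets. The interaction values of the 2 diets share both Control groups.

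A further 7 lists of related pathways were counted beside the 10 genes, for age on Control first, where 16.7% of all genes rose and 11.4% fell. Of 25 further ER folding and disulfide genes, 9 rose and 0 fell; the largest were the BiP cofactor Dnajb11 (0.80 ± 0.22), the ER prolyl isomerase Fkbp11 (0.69 ± 0.27) and the sulfhydryl oxidase Qsox1 (0.67 ± 0.19). Of 19 genes of ER-associated degradation, 7 rose and 0 fell, led by the Derlin gene Derl3 (2.19 ± 0.61), the ubiquitin ligase Syvn1 (0.94 ± 0.28) and the ubiquitin-conjugating enzyme Ube2g2 (0.54 ± 0.13). Of 18 genes of translocation and signal peptide processing, 9 rose and 0 fell, led by Spcs2 and Sec11c of the signal peptidase (0.85 ± 0.17 and 0.69 ± 0.18) and Sec61b of the translocon (0.80 ± 0.19). The median log2 fold changes of these 3 lists were 0.26, 0.22 and 0.32, against 0.03 over all genes. Without Control replicates 1 and 5 the counts of higher genes were 1 of 25, 2 of 19 and 3 of 18, where 11.6% of all genes were higher in the same fit.

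Among 11 sensors and transcription factors, 5 rose and 0 fell with age on Control: Creb3l1 (1.14 ± 0.40), Eif2ak3, the gene of PERK (0.76 ± 0.17), and Creb3l2 (0.76 ± 0.19) had the largest values. The other sensor genes, Atf6 (0.16 ± 0.12, adjusted p = 0.35) and Ern1, the gene of IRE1 (0.13 ± 0.13, adjusted p = 0.49), did not pass. In the PERK and ATF4 arm, 3 of 12 rose and 2 fell, near the shares of 16.7% and 11.4% over all genes, with the asparagine synthetase gene Asns at 3.81 ± 0.90, the glutathione-degrading enzyme gene Chac1 at 2.10 ± 0.57 and the pseudokinase gene Trib3 at -1.50 ± 0.28. Atf4 itself rose by 0.34 ± 0.12 (adjusted p = 0.033), and Ddit3, the gene of CHOP, differed by 0.09 ± 0.24 (adjusted p = 0.81). Without replicates 1 and 5, 1 of 11 sensors and factors and 1 of 12 genes of this arm rose, and 2 of the 12 fell, near the shares over all genes in that fit (11.6% higher, 7.32% lower).

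Chaperones outside the ER were counted as well. Of 17 cytosolic and mitochondrial chaperones, 1 rose and 3 fell with age on Control, and 16 of 17 had negative values, with a median of -0.17. Bag3, a cochaperone of HSP70, rose by 0.72 ± 0.20, while Dnaja1 (-0.52 ± 0.16) and Trap1 (-0.34 ± 0.10) fell. On Low Isoleucine 6 of the 17 fell with age, where 2.44% of all genes fell and 4.9% rose. Among the 6 were Hsph1 (-1.07 ± 0.34), Dnajb1 (-0.73 ± 0.20) and Dnaja1 (-0.53 ± 0.16). Of 19 genes of transport from the ER to the Golgi, 4 rose and 3 fell with age on Control, counts near the shares over all genes (16.7% and 11.4%). The coat gene Sec23b (0.64 ± 0.18) and Sec13 (0.53 ± 0.14) rose, while Sar1b, the GTPase of large secretory cargo, fell by 0.74 ± 0.17 on the log2 scale.

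On Low Isoleucine at 24 months the same lists were counted against Control, where 3.79% of all genes fell and 2.69% rose. Of the 25 folding genes 6 fell and 0 rose, with Fkbp11 at -1.08 ± 0.27, Qsox1 at -0.74 ± 0.19 and the disulfide isomerase Pdia5 at -0.70 ± 0.19. Of 19 degradation genes 3 fell (Edem2 -0.65 ± 0.12, Selenok -0.50 ± 0.15, Derl2 -0.41 ± 0.10), as did 4 of 18 translocation genes (among them Sec61b -0.79 ± 0.19, Tram1 -0.49 ± 0.12 and Ssr2 -0.41 ± 0.10) and 3 of 19 transport genes (Sec23b -0.67 ± 0.18, Sec24d -0.64 ± 0.20, Sar1a -0.38 ± 0.09). Of the 11 sensors and factors Eif2ak3 fell (-0.53 ± 0.17, adjusted p = 0.049), and of the 12 genes of the PERK and ATF4 arm 4 fell, with Chac1 at -2.82 ± 0.60, Asns at -2.80 ± 0.85 and Eif4ebp1 at -0.57 ± 0.14. None of the 17 cytosolic and mitochondrial chaperones passed, Dnajb1 having the smallest p (-0.26 ± 0.19, adjusted p = 0.45). Without Control replicates 1 and 5 the counts of lower genes were 3 of 25, 2 of 19, 0 of 18, 0 of 19, 0 of 11 and 3 of 12, in the order given, where 3.58% of all genes were lower in that fit.

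On Low Amino Acid at 24 months, Atf4 was the only gene of the 7 lists that passed against Control, where 0.293% of all genes fell and 0.452% rose. It ran from 50.8 to 72.9 CPM (median 56.0) on the diet and from 61.3 to 147 CPM (median 80.9) on Control, and its log2 fold change was -0.64 ± 0.13 (adjusted p = 0.017). On Low Isoleucine Atf4 fell too, with a log2 fold change of -0.44 ± 0.12 and an adjusted p of 0.021. Herpud1, an ER membrane protein of degradation, differed by -0.55 ± 0.24 on Low Amino Acid and by -0.43 ± 0.23 on Low Isoleucine, and neither value passed. Dnajc3 (-0.20 ± 0.18 and -0.36 ± 0.18), Pdia6 (-0.03 ± 0.25 and -0.71 ± 0.24), Pdia3 (0.14 ± 0.21 and -0.32 ± 0.21) and Canx (0.08 ± 0.12 and -0.24 ± 0.11) did not pass on either diet. At 6 months, 0 genes of these lists passed on either diet.

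Within groups, the 10 genes varied together from library to library. Over 46 libraries, after the group mean was taken from each log2 CPM value, the 45 pairs had correlations between 0.47 (Calr with Xbp1) and 0.95 (Hyou1 with Creld2), with a median of 0.84. Without 24-month Control replicate 1 and 24-month Low Amino Acid replicate 4, the libraries farthest from their groups, the median was 0.78 and the lowest 0.29. Xbp1 had the lowest median correlation with the other 9 genes, 0.70, and Creld2 the highest, 0.88. All values share the library and its scaling, and the correlations are a description.

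The tested genes outside the list that were most like the mean of the 10 within groups were Dnajb11 (r = 0.96), Pdia3 (0.93), Slc35b1 (0.90), Spcs2 (0.90), Ubfd1 (0.88), Rpn1 (0.88), Ubxn4 (0.88), Uggt1 (0.87), Stx5a (0.87) and Ero1b (0.87). Dnajb11, Pdia3, Uggt1 and Ero1b are ER folding genes, Spcs2 belongs to the signal peptidase, and Rpn1 to the oligosaccharyltransferase. Of 12607 tested genes outside the list, 117 (0.928%) had a correlation over 0.7, and the median was -0.02.

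Male livers could be described only from the authors' comparisons, because the male columns of the count table were shifted against the gene names: the albumin gene Alb had a median count of 75 there, against 1905880 in the female columns. In the authors' deposited table for males, 0 of the 10 genes were called for age on Control, where 8.33% of its genes were called higher and 11.7% lower, and their log2 fold changes lay between -0.12 and 0.39. The authors' deposited table for females called 5 of the 10 higher for the same comparison, Sdf2l1, Manf, Pdia4, Calr and Xbp1, where 12.4% of its genes were higher and 11.1% lower. Sdf2l1 differed by 1.73 between the ages in the authors' deposited table for females and by 0.21 in that for males. The difference between the sexes was not tested.

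For the diets, the authors' deposited table for males called 1 of the 10 genes at 6 months on Low Amino Acid, Hyou1 at -0.67 with an adjusted p of 0.042, where 5.34% of its genes were higher and 11% lower. Sdf2l1 at -0.83 and Creld2 at -0.75 were below 0 in the same comparison of the authors' deposited table and were not called. On Low Isoleucine at 6 months that sex's authors' deposited table called 0 of the 10, where 9.35% of its genes were higher and 11.7% lower. At 24 months, 0 of the 10 were called in males on either diet in the authors' deposited table, where 0.0394% were higher and 0.0169% lower on Low Amino Acid and 0.0394% higher and 0.0282% lower on Low Isoleucine.

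In the authors' deposited table for females, 0 of the 10 genes were called on either diet at either age. At 6 months 0.00582% of the genes of that authors' deposited table were higher and 0.00582% lower on Low Amino Acid, and 0.0407% higher and 0.0523% lower on Low Isoleucine. At 24 months the shares in the authors' deposited table were 2.87% and 2.66% on Low Amino Acid and 4.03% and 5.21% on Low Isoleucine. All 10 genes were negative on both diets at 24 months in the authors' deposited table, Sdf2l1 at -1.33 on Low Amino Acid and at -0.87 on Low Isoleucine. The order of the diets was thus the reverse of that in the counts, where Sdf2l1 was at -0.58 on Low Amino Acid and at -1.21 on Low Isoleucine. The Low Amino Acid column of the authors' deposited table was matched across 8064 genes with a correlation of 0.935 by the mean differences of all libraries, and of 0.9998 when replicates 2 and 4 of that diet were left out. For Low Isoleucine the correlation with the authors' deposited table rose from 0.951 to 0.9994 without replicates 2 and 5. The sources used here do not name the libraries that entered the authors' fit.

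Each sex had 2 further comparisons. From 6-month Control to 24-month Low Isoleucine, the authors' deposited table called 0 of the 10 genes in females, where 4.37% of its genes were higher and 5.97% lower, with log2 fold changes between -0.14 and 0.86. In males the authors' deposited table also called 0 of the 10 for that comparison, where 8.93% were higher and 11.2% lower. A comparison within Low Isoleucine, whose heading does not name the ages, had 0 of the 10 called in females in the authors' deposited table, where 0.355% were higher and 0.384% lower. The same heading had 0 of the 10 called in males in the authors' deposited table, where 3.01% were higher and 4.07% lower.

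**Figure D5:**
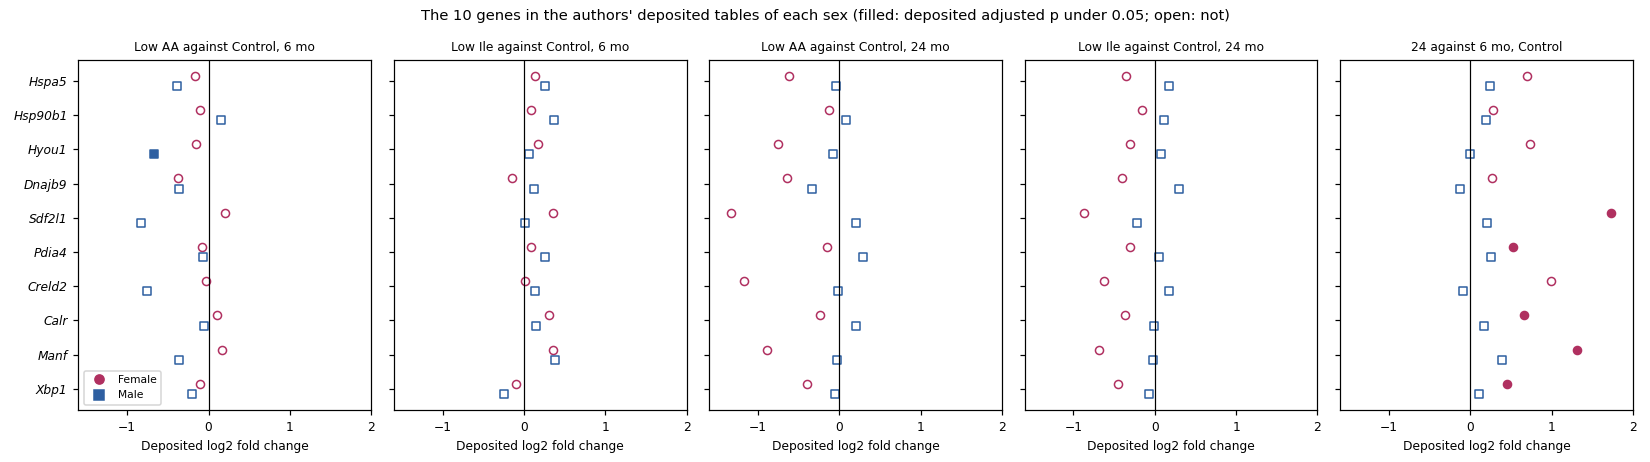
Log2 fold changes of the 10 genes as deposited by the authors, with females as circles and males as squares; each panel is a comparison, and filled marks have a deposited adjusted p under 0.05. For age on Control 5 female marks are filled and 0 male ones, and on Low Amino Acid at 6 months the only filled mark is male Hyou1.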

How the data were processed

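RNA of fasted livers was made into stranded libraries after selection of polyadenylated RNA, and the data of 2 lanes per sample were merged, per the labels' protocols. The submitters' processing notes name GRCm38.p5 as a genome build, and edgeR, limma and R 3.4.3 as tools. Those notes, as given here, name no aligner or counting program. The authors deposited estimated counts for each gene without normalization. Only the 17275 of 51912 lines with every cell filled were used. The 45 male columns were not used. Group differences of the female columns correlated with the authors' deposited log2 fold changes at 0.933 to 0.998 over 5 comparisons. The authors' deposited tables give log2 fold changes, p-values and adjusted p-values per sex, and these are quoted as deposited.

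Estimated counts were rounded to whole numbers. Genes were filtered with filterByExpr, scaled by TMM and fitted with the quasi-likelihood test of edgeR 4.0.16 (R 4.3.3) over 6 groups and 46 libraries, and p-values were adjusted over all 12617 genes. Standard errors were taken from the fold change and its F statistic. The fit was tested on simulated counts. They were drawn for each gene independently, with the same mean and spread in all groups, and genes picked at random were then changed. For Low Isoleucine against Control at 24 months, 39.39% of genes changed by 0.5 on the log2 scale were recovered. At changes of 1.0 and 2.0 the shares were 70.42% and 95.24%. For age on Control they were 40.91%, 74.65% and 96.83%. There were 5 false calls in the former comparison and 13 in the latter. Changes near 0.5 were thus missed more often than found in that setting. The 10 genes varied together between libraries, and their spread differed between groups. For Sdf2l1 the coefficient of variation was 93.1% in the 24-month controls and 43.4% on Low Isoleucine at 24 months. The simulated shares therefore need not hold for these genes. The labels do not say that replicates were separate animals, so p-values measure the spread between these libraries. Per-kilobase levels used exon lengths of the gene annotation given with the build.

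All 10 genes were tested in every comparison, but in some comparisons only part of them are named. From each pathway list, up to 3 called genes per comparison with the largest fold change were named, or the gene with the smallest p, and 10 genes (Atf6, Ern1, Eif2ak3, Atf4, Ddit3, Herpud1, Dnajc3, Pdia6, Pdia3, Canx) were followed whatever their values. Members and lists were chosen with earlier results of these data known. Alternatives were RLE scaling, no filter, DESeq2 1.42.0, voom with quality weights (limma 3.58.1), the compared groups alone, the left-out library put back, 24-month Control replicates 1, 4 and 5 left out, and each library left out in turn. Leaving out replicates 1 and 5 was chosen after seeing the data.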

Additional observations from a re-analysis of the deposited data

Results flagged for a closer look

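Of 60 combinations of gene and group examined, 9 had a library whose distance from its nearest neighbor was large against the range of its group (Dixon's ratio on log2 CPM above the 95% critical value), and chance flags about 1 in 20. Of the 9, 7 were the same library, 24-month Low Amino Acid replicate 4, which stood above its group at 1377 CPM in Hspa5, 2493 CPM in Hsp90b1, 673.1 CPM in Hyou1, 65.87 CPM in Sdf2l1, 768.3 CPM in Pdia4, 85.96 CPM in Creld2 and 164.7 CPM in Manf. Creld2 also had a high library among the 6-month Low Isoleucine libraries, replicate 4 at 62.79 CPM. Calr had a low one among the 24-month Low Isoleucine libraries, replicate 1 at 368.7 CPM.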

How the results depend on the processing

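The count of genes that rose with age on Control was 8 with DESeq2, RLE scaling, no filter or the left-out library put back. It was 5 in the compared groups alone (10.9% of all genes rose there), 2 with voom and quality weights (11.1%), 2 without 24-month Control replicates 1, 4 and 5 (9.20%), and 2 without replicates 1 and 5 (11.6%). It ranged from 2 to 8 when each library was left out in turn. The count for Low Isoleucine against Control at 24 months (1 lower) was 0 in the compared groups alone, with voom, without the 3 aged controls and without replicates 1 and 5, and ranged from 0 to 2 with single libraries left out. Without 24-month Low Amino Acid replicate 4, Sdf2l1 passed there too (-1.21 ± 0.38, adjusted p = 0.042). The count for age on Low Amino Acid (1 higher) was 0 with no filter and 0 to 1 with single libraries left out, and that for the 24-month Low Amino Acid difference from Control (0) was 0 to 2. Why single libraries moved these counts was not tested. Among single-gene results under all alternatives, 5890 kept their side of the threshold, 47 lost it, 3 gained it and 0 called values changed sign. Of the 110 results of the main fit, few were calls: 8 for age on Control, 1 for age on Low Amino Acid and 1 for Low Isoleucine at 24 months. The 5890 are thus mostly uncalled results that stayed uncalled, and they do not measure how stable the calls were. With single libraries left out, the log2 fold change with age on Control ran from 1.71 to 2.33 in Sdf2l1 and from 1.32 to 1.72 in Manf, and both passed in 46 of 46 fits. No paired analysis was possible because the labels give no replicate numbers that tie samples across groups. Depth was lowest in 24-month Low Isoleucine replicate 5.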
